A study of Homo sapiens with 12 samples.

Results

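The NF-κB Rel family consists of 5 genes in human cells, NFKB1, NFKB2, RELA, RELB and REL, and all 5 were taken by symbol from a table of 33093 genes with read counts. All 5 passed the filter on low counts that left 14383 genes for testing. RNA-seq was carried out on HEK293T, a line of human embryonic kidney cells, in 4 groups of 3 samples. WT cells and cells with the NFKB1 S80A change received either no treatment or TNFα, a pro-inflammatory cytokine, at 10 ng/ml for 3 h. The S80A cells carry a CRISPR/Cas9 knock-in that replaces serine 80 of p50, the mature product of NFKB1, with alanine, and they were isolated as single-cell clones. The number of clones behind the samples is not given in the sources used here, and a clone and its genotype cannot be told apart. The study calls the triplicates independently generated.

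Rel proteins share a Rel homology domain and bind DNA at κB sites as homodimers or heterodimers. NFKB1 and NFKB2 encode the precursors p105 and p100, whose processing yields p50 and p52, which bind DNA but have no transactivation domain. RELA (p65), RELB and REL (c-Rel) carry such a domain and activate transcription. In resting cells most dimers are held in the cytoplasm by IκB proteins, and p105 and p100 also act as inhibitors through their own ankyrin repeats. TNFα signals through its receptor to the IKK complex, which triggers the loss of IκBα and the entry of p50 and p65 into the nucleus. Several family genes are themselves known NF-κB targets.

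The edited codon lies in NFKB1, on the plus strand of chromosome 4 (102501330 to 102617302 in GRCh38). The exon that holds it is shown because it holds the codon that gives the S80A cells their name. It is exon 5, a coding exon of 99 bases at 102537858 to 102537956, and the capitals mark the unedited serine codon at 102537939 to 102537941.
NFKB1 exon 5: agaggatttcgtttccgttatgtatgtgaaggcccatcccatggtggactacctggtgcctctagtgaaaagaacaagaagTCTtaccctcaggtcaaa
That codon is residue 80 of the protein of 968 residues and residue 81 of the protein of 969 residues. The counts are sums over all reads of a symbol, so they do not tell edited from unedited transcripts.

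κB sites near the family's own transcription starts are shown next, because the genes differed in their response to TNFα. RefSeq promoter windows (GRCh38.p14) were given for 4 of the 5 genes, with 8 windows in all, and the 250 bases before each start were searched on both strands. RELB had no window and was not searched. The κB consensus was found in 4 of the 8 windows, and in 5.21% of all 35116 windows of that length. A narrower motif, the frame of the oligonucleotides used in the study (a run of G, 2 free positions, then a run of T and a run of C), was also found in 4 windows, against 1.73% of all windows. The motifs overlap, since every match to the narrower motif in these windows was also a match to the consensus. In the sequences below, 10 bases flank each match on either side, the strand is that of the gene, and the capitals mark the match.
NFKB1, chr4:102501310-102501319, 39 bases before the start: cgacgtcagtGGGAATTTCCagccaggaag
NFKB2, chr10:102394471-102394480, 97 bases before the start: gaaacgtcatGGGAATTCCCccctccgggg
NFKB2, chr10:102394500-102394509, 68 bases before the start: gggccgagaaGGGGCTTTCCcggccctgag
NFKB2, chr10:102395529-102395538, 166 bases before the start: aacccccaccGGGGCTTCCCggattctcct
NFKB2, chr10:102395684-102395693, 11 bases before the start: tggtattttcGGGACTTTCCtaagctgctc
REL, chr2:60881527-60881536, 37 bases before the start: cgtcagccgcGGGAAATTCCcctcccgcca
The coordinates are those of the 10 capital bases, and the distance is the number of bases between the match and the start. The NFKB2 matches fell in windows of 2 different starts, and the first of them reads the same on both strands and overlaps a further match on the other strand. On its other strand the REL site reads GGGAATTTCC, shifted by 1 base, which is the same 10 letters as the NFKB1 site. Both RELA windows had 0 matches, which says only that these letters are not in those windows. The NFKB1 match and the NFKB2 match at 166 bases lie in no annotated exon, and the others overlap exons of 1 to 3 annotated transcripts.

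**Figure D1:**
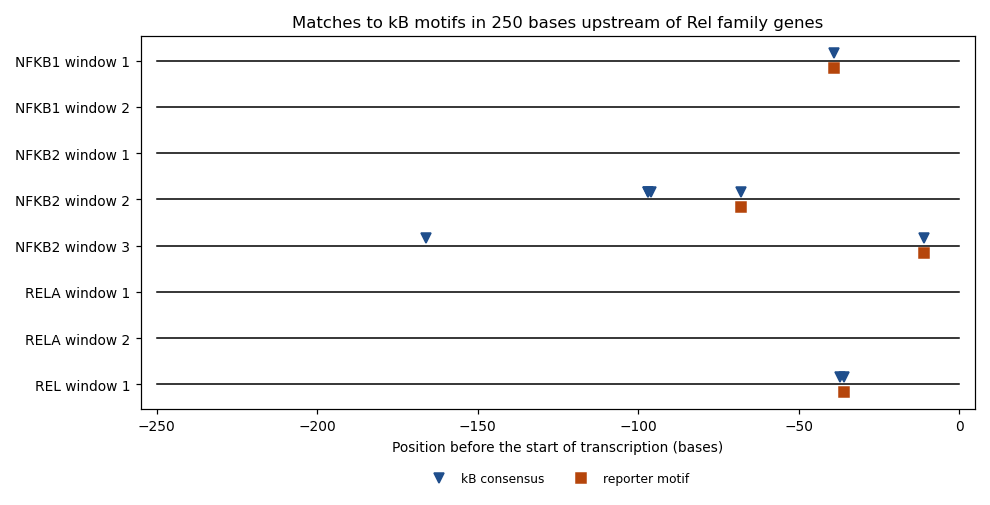
Matches to κB motifs in the 250 bases before each RefSeq transcription start of NFKB1, NFKB2, RELA and REL; the x axis is the position in bases before the start, triangles are the κB consensus and squares the narrower motif of the study's oligonucleotides. Of 8 windows 4 hold a match, 1 of NFKB1, 2 of NFKB2 and 1 of REL.

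Library totals ran from 15624878 to 20889577 counts. HEK293T markers were present, with 8 of 8 tested and a summed level of 692 to 1036 CPM, counts scaled to a common library total. Between the genotypes these 8 markers did not move together. NEFM had 1774 to 2165 counts in the WT libraries and 3 to 6 in every S80A library, KRT18 was higher in S80A cells by a log2 difference of 0.46 untreated and 0.60 after TNFα (edgeR adjusted p = 0.021 and 0.0047), and the other 6 passed in neither comparison, with EYA1 passing in the mean of both (0.27, edgeR adjusted p = 0.019). The median of the 8 was 0.25 untreated and 0.08 after TNFα. Leukocyte markers summed to at most 2.64 CPM, with 4 of 7 at 3 counts or fewer in every library, endothelial markers to at most 0.448 CPM with 3 of 4, and fibroblast markers to at most 16.04 CPM with 2 of 4, DCN among them. The fibroblast markers summed to 13.8 to 16.04 CPM in the WT and 6.40 to 7.94 CPM in the S80A libraries. COL1A1, the 1 of the 4 that was tested, was lower in S80A cells by log2 differences of -1.20 untreated and -1.03 after TNFα (edgeR adjusted p = 3.6e-05 and 0.00015). The part of these marker differences in the genotype comparisons was not tested. Libraries also differed in how strongly long transcripts were represented. For each gene the deviation of its log2 CPM from its group mean was taken. The median deviation of the 1631 genes with canonical transcripts over 7000 bases was then compared with that of the 807 genes under 1000 bases. It lay 0.38 (log2) below in replicate 2 of untreated S80A cells and 0.27 below in replicate 3 of TNFα-treated S80A cells. These 2 libraries stood farthest below their groups. Where a family gene passed or failed differently without them, both forms are given.

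TNFα raised the mRNA of RELB, NFKB2 and NFKB1 in WT cells, by 35.4-fold, 4.48-fold and 2.42-fold. RELA and REL, with 1.13-fold and 2.22-fold, did not pass the test. So 3 of the 5 family genes were increased and 0 were reduced at a threshold of 0.05 on p-values of the edgeR quasi-likelihood test, adjusted by the Benjamini-Hochberg method over all 14383 genes. By that rule 0.577% of all tested genes were increased and 0.111% reduced. The treated and untreated samples did not overlap for any of the 5 genes, against 12.7% of all tested genes. The median log2 fold change was 1.27 over the 5 genes and -5.17e-05 over all tested genes. In bulk RNA more responding cells and more RNA per responding cell cannot be told apart.

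RELB, the activating subunit that pairs with p52 in the non-canonical pathway, had the lowest starting count and the highest fold. Its normalised read counts, scaled for library size by the TMM method, were 21.7, 21.5 and 27.8 in untreated WT cells and 883, 754 and 884 after TNFα. The untreated values rest on 21, 24 and 27 reads. All treated samples lay far above all untreated samples, and the log2 fold change was 5.15 (standard error, SE, 0.14, 95% interval 4.84 to 5.46, edgeR adjusted p = 1.6e-11). In S80A cells RELB had 27.8, 26.4 and 29.5 normalised counts without TNFα. After TNFα it had 1395, 1117 and 1222. The log2 fold change there was 5.47 (SE 0.14, 95% interval 5.17 to 5.77, edgeR adjusted p = 6.5e-12), which is 44.2-fold.

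NFKB2, the source of p100 and p52, responded next most strongly. It had 385, 392 and 396 normalised counts in untreated WT cells and 1791, 1636 and 1834 after TNFα. The untreated WT samples were nearly identical, with an SD of 5.51 around a mean of 391 (n = 3), and the log2 fold change was 2.16 (SE 0.09, edgeR adjusted p = 1.1e-09). In S80A cells it had 474, 412 and 428 normalised counts untreated and 2249, 2006 and 2009 treated. That is a log2 fold change of 2.25 (SE 0.09, edgeR adjusted p = 4.8e-10).

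NFKB1, the edited gene, had 1091, 999 and 948 normalised counts in untreated WT cells and 2540, 2298 and 2508 after TNFα. The groups were separate and the log2 fold change was 1.27 (SE 0.10, 95% interval 1.06 to 1.49, edgeR adjusted p = 5.0e-06). In S80A cells the values were 1039, 863 and 993 without TNFα and 3198, 2803 and 2545 with it. The treated S80A samples were more spread than the treated WT samples, with an SD of 329 against 131 (n = 3 each). The log2 fold change was 1.56 (SE 0.10, 95% interval 1.35 to 1.78, edgeR adjusted p = 3.2e-07).

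RELA, which encodes the p65 partner of p50, had the smallest spread within groups of the 5 genes. In WT cells it had 1581, 1715 and 1530.5 normalised counts untreated and 1745, 1817 and 1878 after TNFα. The treated samples were all higher, by a narrow margin, and the log2 fold change of 0.17 (SE 0.08, 95% interval 0.01 to 0.33) did not pass (edgeR adjusted p = 0.77). In S80A cells the counts were 1454, 1352 and 1510 untreated and 1784, 1945 and 1825 treated. The log2 fold change of 0.36 (SE 0.08, 95% interval 0.20 to 0.53) passed in S80A cells (edgeR adjusted p = 0.027), a rise of 1.29-fold. That call was not stable. It was lost in 10 of 12 fits that left out 1 sample (edgeR adjusted p from 0.0293 to 0.151, highest without replicate 2 of treated S80A cells), with only the 6 S80A samples in the fit (0.206) and without the 2 libraries low in long transcripts (0.120). It passed in 7 of the 9 fits changed in another way, among them DESeq2 (adjusted p = 0.00054) and the replicate number as a block (edgeR adjusted p = 0.032).

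In S80A cells 4 of the 5 genes thus passed, RELA in addition to the same 3 as in WT cells, and 0 were reduced. Of all tested genes 0.966% were increased and 0.292% reduced by TNFα in S80A cells. The samples did not overlap for 4 of the 5 genes, against 14.4% of all tested genes, and REL was the exception. The median log2 fold change was 1.56 over the 5 genes and -0.00188 over all tested genes. Whether the response of a gene differed between the genotypes was tested separately by the interaction.

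**Figure D2:**
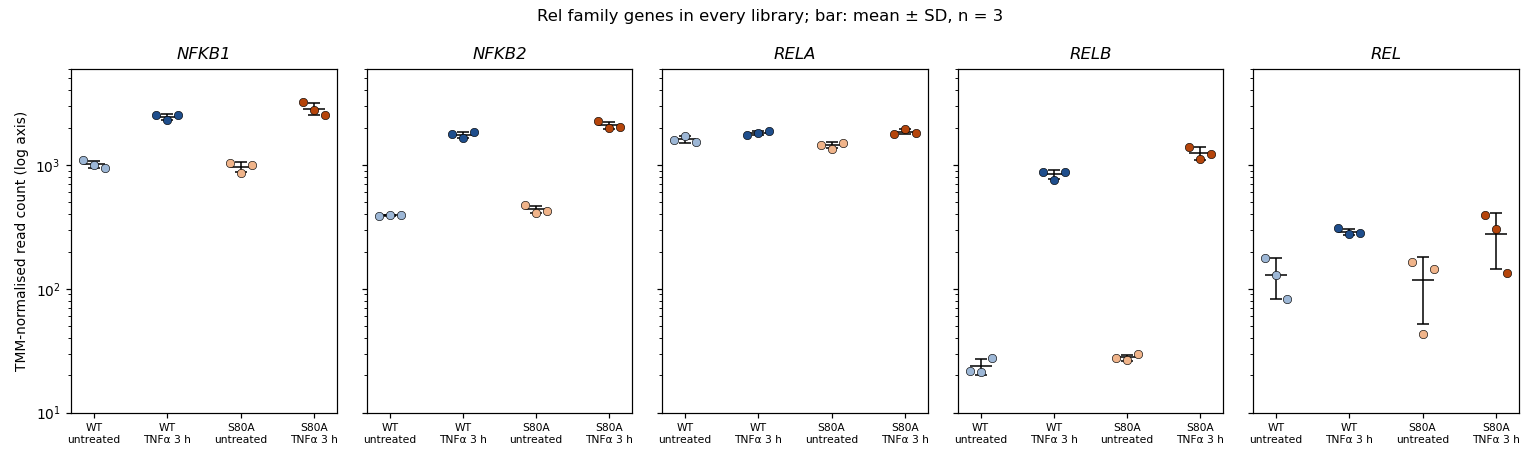
TMM-normalised read counts (log axis) of the 5 Rel family genes in each of the 12 libraries, in 4 groups; points are libraries and bars the mean ± SD (n = 3). RELB, NFKB2 and NFKB1 separate by treatment in both genotypes, RELA lies between 1352 and 1945 in every library, and REL spreads widely in 3 of the 4 groups.

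REL, which encodes c-Rel, best known from lymphoid cells, was the most variable gene of the family. It had 178, 129 and 83.5 normalised counts in untreated WT cells and 307, 278 and 282 after TNFα. In S80A cells it had 164, 43.2 and 145 untreated and 392, 306 and 133 treated. The lowest treated S80A sample thus lay below the highest untreated S80A sample, whereas the WT groups were separate. The log2 fold changes were 1.15 in WT cells (SE 0.39, 95% interval 0.30 to 1.99, edgeR adjusted p = 0.49) and 1.21 in S80A cells (SE 0.40, 95% interval 0.36 to 2.06, edgeR adjusted p = 0.27). These values are close to that of NFKB1 in WT cells, and their SEs are much larger.

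By the within-group deviation of long from short transcripts, REL was lowest in the library with the fewest long transcripts in 3 of the 4 groups. So was NFKB1, with smaller deviations. The pooled SD within groups was 0.71 on the log2 scale for REL, more than for 99.4% of tested genes, and 0.18 was the median of 1336 genes at a similar level. It was 0.07 for RELA, 0.08 for NFKB2, 0.13 for NFKB1 and 0.15 for RELB, against a median of 0.16 over all tested genes. The canonical REL transcript, at 11108 bases, is longer than those of 97.0% of the tested genes with a length, and the other family transcripts run from 2258 to 4055 bases. REL was 1.19 (log2) below its group mean in replicate 2 of untreated S80A cells and 0.91 below it in replicate 3 of treated S80A cells, the same 2 libraries in which long transcripts were lowest. NFKB1 was 0.16 below its group mean in each of these 2 libraries. It was also lowest in replicate 3 of untreated WT cells, whose long transcripts were the lowest of that group by this measure. The plain difference between the median log2 CPM of the long and of the short genes was instead lowest in replicate 2 there. It was 1.058 in replicate 2 and 1.069 in replicate 3, so the match in that group depended on the measure. In treated WT cells long transcripts were lowest in replicate 3 and REL in replicate 2.

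Without these 2 libraries REL passed in both genotypes, with log2 fold changes of 1.15 in WT cells (SE 0.19, edgeR adjusted p = 0.0043) and 1.18 in S80A cells (SE 0.22, edgeR adjusted p = 0.014). Both libraries are S80A, untreated replicate 2 and treated replicate 3, so each S80A group kept 2 samples. No WT sample was left out, and the WT log2 fold change was also 1.15 with all 12 libraries (SE 0.39). All groups share 1 estimate of the spread, so REL passed in WT cells through a smaller SE, without new WT data. The long-transcript covariate was the plain difference of medians in each library, not the within-group deviation. With it the values were 0.95 (SE 0.19, edgeR adjusted p = 0.017) and 1.17 (SE 0.19, edgeR adjusted p = 0.0023). Both fits were added after the data were seen. The part of transcript length in the REL counts was not tested further.

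**Figure D3:**
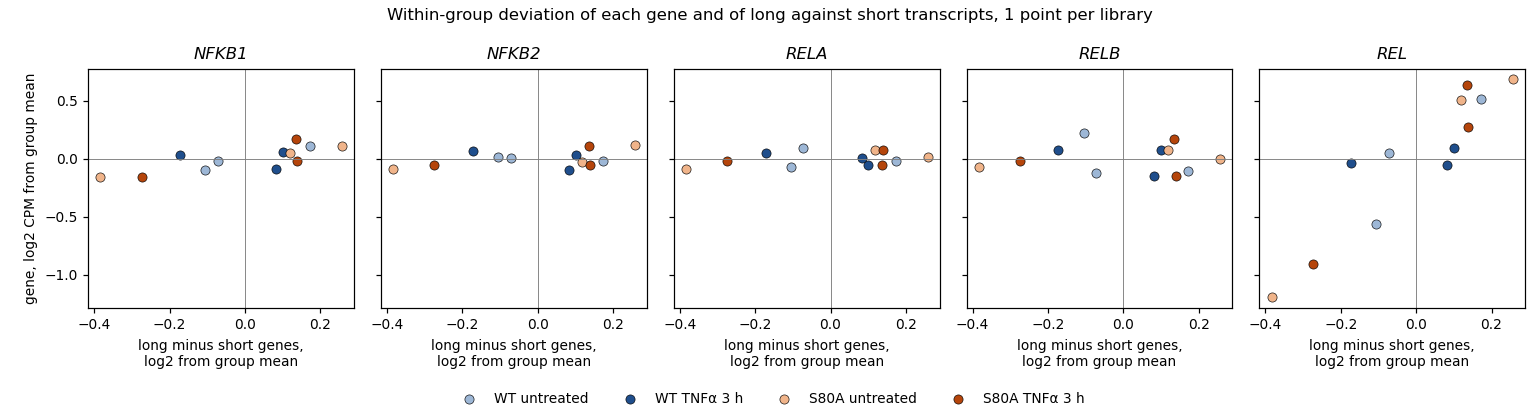
Deviation of each Rel family gene from its group mean (y axis, log2 CPM) against the deviation of long relative to short transcripts (x axis, log2) in the 12 libraries, coloured by group. REL falls to -1.19 and -0.91 in the 2 S80A libraries farthest to the left, and the other 4 genes stay within 0.23 of their group means in all libraries.

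Before treatment 0 of the 5 genes passed the edgeR test between S80A and WT cells, and 0 of the 5 had an unadjusted p-value under 0.05 in that fit. Without the 2 libraries low in long transcripts NFKB2 had an unadjusted p of 0.040 (edgeR adjusted p = 0.20). RELA had an unadjusted p of 0.047 with DESeq2 (adjusted p = 0.26) and of 0.026 with the long-transcript covariate (edgeR adjusted p = 0.12). DESeq2 also called 0. In this comparison 6.26% of all tested genes passed. The log2 differences, S80A minus WT, were 0.25 for RELB (95% interval -0.19 to 0.68), 0.16 for NFKB2 (-0.02 to 0.35), -0.07 for NFKB1 (-0.28 to 0.15), -0.16 for RELA (-0.32 to 0.00) and -0.12 for REL (-1.01 to 0.77). The intervals of the 4 genes other than REL leave out a doubling or a halving, and that of REL does not leave out a halving. NFKB2 was higher in every S80A sample and RELA lower in every S80A sample, and 25% of all tested genes had groups that did not overlap.

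After TNFα, RELB was higher in S80A than in WT cells, and it was the only gene of the 5 to pass. Its mean was 840 ± 75.1 normalised counts in WT and 1245 ± 140 in S80A cells (SD, n = 3 each), a fold of 1.48 (95% interval 1.28 to 1.72, edgeR adjusted p = 0.0040). Of all tested genes 2.92% were higher in S80A cells in this comparison and 4.44% lower. RELB passed in each of the 12 fits that left out 1 sample, with a log2 difference of 0.48 to 0.64.

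NFKB2 and NFKB1 were also higher in every treated S80A sample than in every treated WT sample, without passing. The log2 difference was 0.25 for NFKB2 (SE 0.08, edgeR adjusted p = 0.073) and 0.22 for NFKB1 (SE 0.10, edgeR adjusted p = 0.20). The groups did not overlap for 26.2% of all tested genes. NFKB2 passed with the DESeq2 test (adjusted p = 0.028), and both genes passed without the 2 libraries low in long transcripts (edgeR adjusted p = 0.043 for NFKB2 and 0.038 for NFKB1) and with the long-transcript covariate (edgeR adjusted p = 0.019 and 0.026). Leaving out replicate 2 of untreated S80A cells alone, a sample outside this comparison, also let NFKB2 pass (edgeR adjusted p = 0.040). Its log2 difference stayed at 0.25, and 1646 of 14617 tested genes passed in that fit, against 1058 of 14383 with all samples. RELA differed by 0.03 (95% interval -0.13 to 0.19) and REL by -0.05 (-0.86 to 0.75), with overlapping groups, so for REL neither direction could be told at this spread.

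Averaged over both treatments, 6 S80A against 6 WT samples, RELB and NFKB2 were higher in S80A cells. The log2 differences were 0.41 for RELB (SE 0.11, edgeR adjusted p = 0.023) and 0.21 for NFKB2 (SE 0.06, edgeR adjusted p = 0.026). Of all tested genes 7.21% were higher and 9.47% lower in S80A cells here. Neither call was stable when 1 sample was left out, while the log2 difference stayed at 0.36 to 0.47 for RELB and 0.18 to 0.23 for NFKB2. Over all tested genes 1798 to 3073 passed in those fits, against 2399 with all samples. RELB passed in 9 and NFKB2 in 6 of the 12 fits that left out 1 sample, and both were lost without replicate 1 of untreated WT cells (edgeR adjusted p = 0.065 and 0.063) and without replicate 2 (0.075 and 0.062). RELB was also lost without replicate 3 of untreated S80A cells (edgeR adjusted p = 0.070). NFKB2 was lost without replicate 3 of untreated WT cells, replicate 2 of treated WT cells and replicate 1 of either S80A group (edgeR adjusted p from 0.058 to 0.074).

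The interaction asks whether the log2 response to TNFα differs between the genotypes. None of the 5 genes passed, 0 had an unadjusted p-value under 0.05, and DESeq2 called 0. Among all tested genes 0% passed (0 of 14383), and 520 had an unadjusted p-value under 0.05. The response was larger in S80A cells by 0.32 for RELB (95% interval -0.17 to 0.81), 0.29 for NFKB1 (-0.01 to 0.58), 0.19 for RELA (-0.04 to 0.42), 0.09 for NFKB2 (-0.17 to 0.34) and 0.06 for REL (-1.14 to 1.26), and every interval of this fit includes 0. The passing of RELA in S80A cells alone is therefore not shown to be a difference between the genotypes. For NFKB1 the interaction passed in no other fit, but its unadjusted p was 0.049 with DESeq2. With edgeR it was 0.026 with the replicate number as a block and 0.033 without the 2 libraries low in long transcripts. With the long-transcript covariate it was 0.0059 (95% interval 0.10 to 0.51, edgeR adjusted p = 0.52), where 1302 of 14383 tested genes had an unadjusted p under 0.05.

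**Figure D4:**
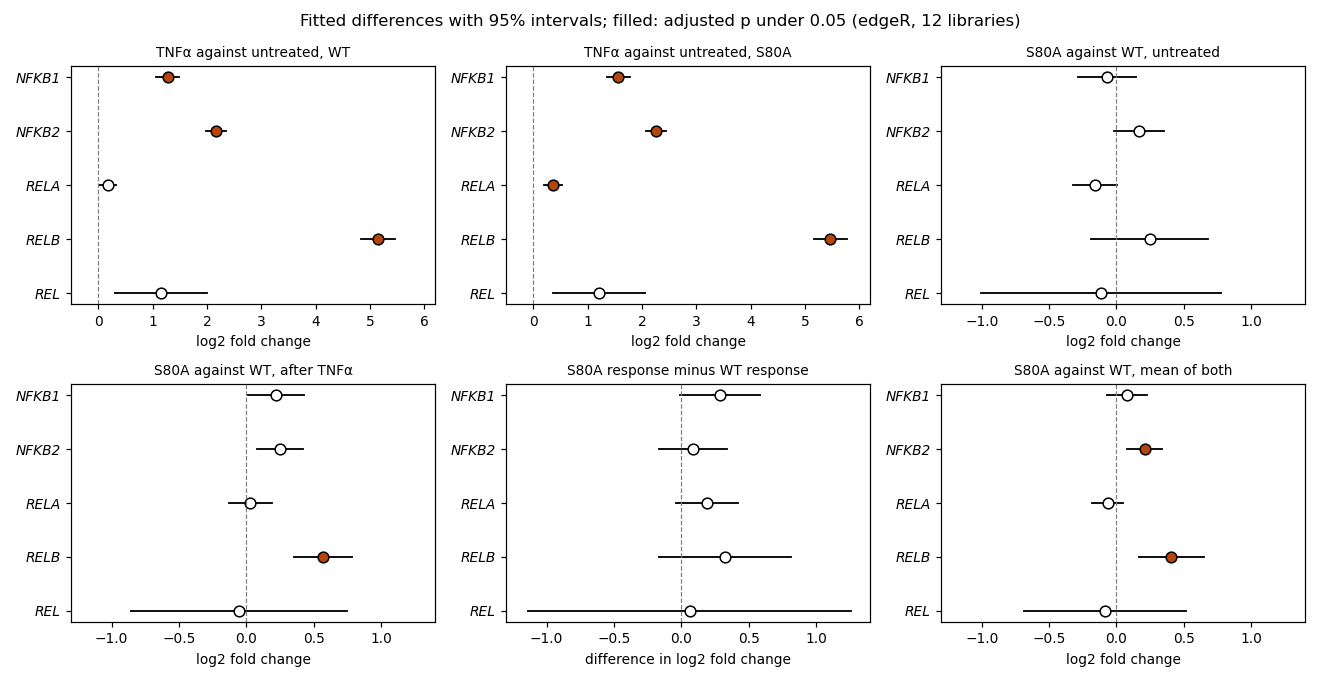
Log2 differences of the 5 Rel family genes in 6 comparisons (x axis), with 95% intervals; filled points have an adjusted p-value under 0.05 (edgeR, 12 libraries). The TNFα responses of RELB stand at 5.15 and 5.47, the differences between genotypes lie between -0.16 and 0.57, and REL has the widest interval in every panel.

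Levels of different genes were compared as CPM per kilobase of exon, with TMM scaling. With the union of all annotated exons as the length, RELA had the highest level in untreated WT cells at 15.9 ± 0.942 (SD, n = 3). NFKB2 and NFKB1 followed at 3.78 ± 0.0532 and 3.48 ± 0.250, with overlapping ranges, and RELB and REL at 0.426 ± 0.0649 and 0.410 ± 0.149, also overlapping. RELA transcripts thus made up most of the family before stimulation. In treated WT cells RELA (17.9 ± 0.661), NFKB2 (16.9 ± 1.01) and RELB (15.1 ± 1.35) were neighbours with overlapping ranges, above NFKB1 (8.42 ± 0.451) and REL (0.910 ± 0.0505).

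S80A cells had the same order as WT cells before treatment, with RELA at 14.2 ± 0.793 and REL lowest at 0.370 ± 0.204 (SD, n = 3). There the ranges of NFKB2 (4.23 ± 0.308) and NFKB1 (3.32 ± 0.315) did not overlap. After TNFα RELB had the highest mean in S80A cells at 22.4 ± 2.52, with a range that overlapped that of NFKB2 (20.2 ± 1.35), and RELA stood below both at 18.3 ± 0.830. NFKB1 (9.80 ± 1.13) and REL (0.872 ± 0.416) followed. This order depended on the length used. With the canonical transcript RELA had the highest mean in all 4 groups, at 39.7 ± 1.80 against 37.9 ± 4.37 for NFKB1 and 29.7 ± 3.35 for RELB in treated S80A cells. The mean of NFKB1 lay above that of NFKB2 in all 4 groups. The ranges of NFKB1 and NFKB2 overlapped in both treated groups, and those of RELA and NFKB1 in treated S80A cells.

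As a share of the family's summed level per kilobase of exon, RELA went from 66.2% ± 1.505 to 30.3% ± 1.68 of the total in WT cells while its own counts barely moved (SD, n = 3). RELB went from 1.79% ± 0.345 to 25.5% ± 1.16 and NFKB2 from 15.8% ± 0.786 to 28.6% ± 0.337. In S80A cells the share of RELA went from 62.8% ± 1.55 to 25.7% ± 2.44, that of RELB from 2.22% ± 0.0829 to 31.3% ± 1.98 and that of NFKB2 from 18.7% ± 0.951 to 28.2% ± 0.206. None of these ranges overlapped between treated and untreated samples, and each difference had p = 0.1 in a two-sided exact permutation test, the smallest that 3 samples against 3 allow. Adjusted over the 20 tests of shares (5 genes in 4 comparisons), that is 0.2, so no test of a share could pass 0.05.

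The share of NFKB1 was 14.5% ± 0.963 and 14.2% ± 0.288 in untreated and treated WT cells, and 14.6% ± 0.504 and 13.7% ± 0.818 in S80A cells (two-sided exact permutation test, p = 0.8 and 0.2). The summed level of the family went from 24.0 ± 0.995 to 59.3 ± 2.89 in WT cells and from 22.6 ± 1.49 to 71.5 ± 4.48 in S80A cells (SD, n = 3). Between treated cells the share of RELB was 5.81 percentage points higher in S80A than in WT cells and that of RELA differed by -4.58 points, both without overlap (two-sided exact permutation test, p = 0.1 each). With canonical lengths RELA made up 61.4% ± 1.69 of the family in untreated and 31.3% ± 1.63 in treated WT cells, and RELB 1.01% ± 0.199 and 16.1% ± 0.795. For NFKB1 the direction turned with the length. With canonical lengths its share was 24.0% ± 1.44 untreated and 26.2% ± 0.562 treated in WT cells, without overlap, and 24.3% ± 0.798 and 25.9% ± 1.42 in S80A cells, with overlap. With coding lengths it was 22.3% ± 1.17 and 25.9% ± 0.574 in WT cells and 22.8% ± 0.504 and 26.0% ± 1.14 in S80A cells (SD, n = 3), without overlap in either.

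**Figure D5:**
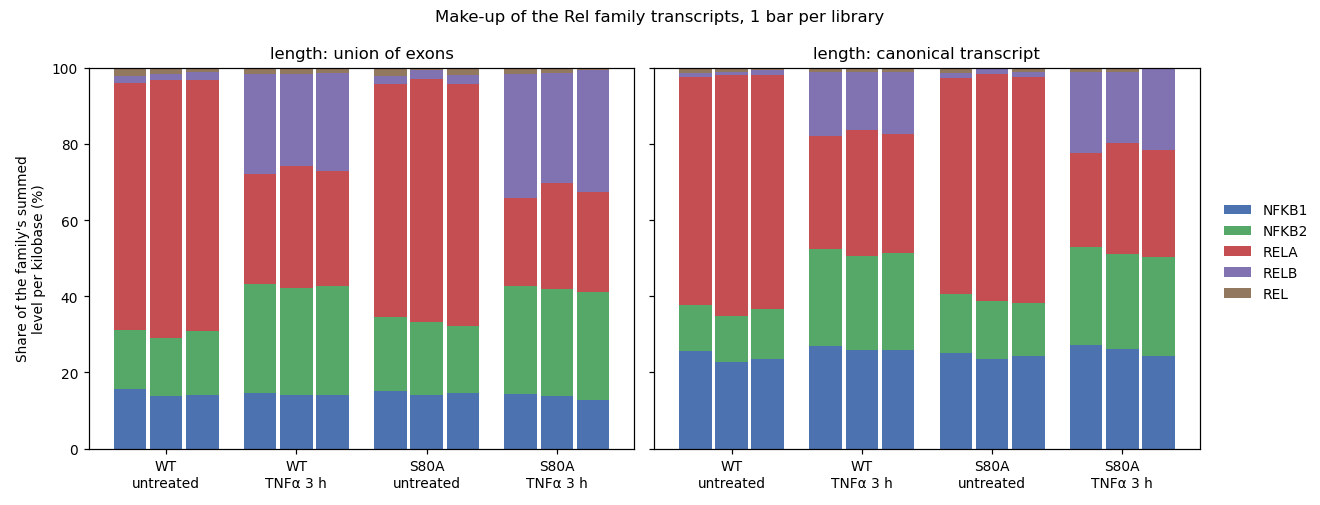
Share of each Rel family gene in the family's summed level per kilobase (%), 1 bar per library in 4 groups, with the union of exons (left) or the canonical transcript (right) as the length. RELA holds the largest share in every untreated library, and RELB and NFKB2 hold larger shares after TNFα in both genotypes and under both lengths.

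The genes most like each member over the 12 libraries were found by Pearson's r of log2 CPM, as a description, since the libraries share the treatment. NFKB2 and RELB were closest to each other (r = 0.999), and the other neighbours of NFKB2 were NFKBIA, the gene of IκBα (r = 0.997), and SDC4, a syndecan (r = 0.996). Those of RELB were CD83, an immunoglobulin superfamily protein, and NFKBIA (r = 0.998 each). NFKB1 was closest to OPTN, an autophagy receptor (r = 0.994), to TNFAIP3, the feedback inhibitor A20 (r = 0.991), and to NFKB2 (r = 0.990). RELA had weaker neighbours, DCAF8, BTN2A2 and ZHX2 (r = 0.944, 0.937 and 0.935). Those of REL were ROBO1, FAM53C and CACHD1 (r = 0.986, 0.969 and 0.968), none of which passed for TNFα in either genotype. Their canonical transcripts have 6927, 4143 and 5933 bases, against a median of 3349 for tested genes. Lengths above that median were not particular to the neighbours of REL. Those of RELA have 3867, 3583 and 4361 bases, OPTN has 3479 and TNFAIP3 4665, and the remaining neighbours run from 1559 to 3015.

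Of 43 pathway genes in 6 lists around the family, 4 rose and 0 fell with TNFα in WT cells, where 0.577% of all tested genes rose, and 8 rose and 0 fell in S80A cells, where 0.966% of all tested genes rose. The median log2 fold change of the 43 was 0.05 and 0.04. Of the 6 IκB genes, the inhibitors and nuclear partners of Rel dimers, 3 rose in WT and 4 in S80A cells, with medians of 0.91 and 0.96. NFKBIA rose by a log2 fold change of 3.52 and 3.66 (SE 0.10 each, edgeR adjusted p = 1.6e-11 and 6.5e-12). The atypical IκB genes BCL3 and NFKBIZ, which encode nuclear partners of p50 and p52, rose by 1.90 and 1.33 in WT cells (edgeR adjusted p = 0.00044 and 4.5e-05) and by 2.06 and 1.33 in S80A cells (edgeR adjusted p = 0.00010 and 3.7e-05). The other in S80A cells was NFKBIE, the gene of IκBε, at 0.59 (edgeR adjusted p = 0.026), which was named after its values were seen. In WT cells NFKBIE was at 0.48 without passing (edgeR adjusted p = 0.13).

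Among the 8 genes of the IKK complex and of NIK with its degradation complex, TRAF3, an adaptor that keeps NIK low, rose in both genotypes. Its log2 fold change was 0.63 in WT (edgeR adjusted p = 0.00088) and 0.76 in S80A cells (edgeR adjusted p = 0.00011). BIRC3, a ubiquitin ligase of the same complex, and IKBKB, the kinase IKKβ, passed in S80A cells, at 2.30 and 0.46 (edgeR adjusted p = 0.022 and 0.0083). In WT cells they were at 1.45 and 0.26 without passing (edgeR adjusted p = 0.28 and 0.38). BIRC3 rests on few reads, with means of 4.14 and 21.0 normalised counts in untreated and treated S80A cells. MAP3K14, which encodes NIK, had 157 and 178 normalised counts in untreated and treated WT cells and 131 and 141 in S80A cells, and passed in no comparison (log2 fold change with TNFα 0.18 and 0.10, edgeR adjusted p = 0.997 and 0.887). NFATC1, a Rel homology protein outside the NF-κB family and 1 of 5 such genes, rose by 0.90 in S80A cells (edgeR adjusted p = 0.00025). In WT cells it was at 0.34 without passing (edgeR adjusted p = 0.33). The lists of TNF receptor signalling, of precursor processing and of coactivators had 0 of 7, 0 of 7 and 0 of 10 genes that passed for TNFα in either genotype.

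Between the genotypes the share of the 43 pathway genes that passed was below that of all tested genes, at 4.65% against 6.26% untreated, 6.98% against 7.36% after TNFα and 11.6% against 16.7% in the mean of both treatments. After TNFα, NFKBIA was higher in S80A cells along with RELB, by a log2 difference of 0.39 (SE 0.09, edgeR adjusted p = 0.013). CHUK, the kinase IKKα, and KAT2A, an acetyltransferase, were lower, by log2 differences of -0.35 each (edgeR adjusted p = 0.046 and 0.019). In untreated cells 2 of the 43 genes passed, both lower in S80A cells, KAT2A at -0.50 (edgeR adjusted p = 0.0021) and NFATC1 at -0.41 (edgeR adjusted p = 0.039). Averaged over both treatments NFKBIA (0.32) and RIPK1, a kinase of the TNF receptor complex (0.21), were higher (edgeR adjusted p = 0.0029 and 0.022). CHUK (-0.28), BTRC (-0.27), which encodes the IκB ubiquitin ligase subunit β-TrCP, and KAT2A (-0.43) were lower (edgeR adjusted p = 0.014, 0.0059 and 0.00018). For the interaction 0 of the 43 genes passed.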

How the data were processed

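RNA-seq counts of 12 samples were analysed. Reads of 75 bp, sequenced from 1 end, were aligned by the authors with HISAT (GRCh38) and deposited as raw counts per gene symbol from HTSeq-count. Versions and counting options are not given in the sources used here. Deposited lists of the authors' fold changes and p-values were not used. Of 33121 rows, 28 turned into dates were dropped (at most 0.233% of counts).

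Groups came from the sample labels. Counts were fitted in R 4.3.3 with edgeR 4.0.16 (TMM, filterByExpr with minimum count 10, quasi-likelihood, a mean for each of 4 groups, Benjamini-Hochberg over all 14383 tested genes, threshold 0.05). Standard errors are the size of the log2 fold change over the square root of F. DESeq2 1.42.0 was an alternative. The fit was also run on simulated counts, with changes in treated WT cells only and scored for TNFα in WT cells only. It did not cover the genotype or interaction comparisons. Python 3.11.15 with scipy 1.17.1 gave exact permutation tests. Lengths came from GENCODE 44, in which 87.8% of tested genes had a canonical transcript length. Log2 CPM used a prior count of 2.

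The named genes were the 5 members, for each the 3 genes of highest r, those of the lists that passed (at most 3 per list, by size), NFKBIA and MAP3K14. Members and lists were chosen with earlier results of these data known. Protein sequences were not compared here.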

Additional observations from a re-analysis of the deposited data

How the results depend on the processing

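The rises of RELB, NFKB2 and NFKB1 with TNFα passed in both genotypes in each of the 12 fits that left out 1 sample and in each of the other 9 fits. With 1 sample left out, 3 family genes passed in WT cells, 3 to 4 in S80A cells and 0 between untreated cells. Between treated cells 1 to 2 passed, for the interaction 0 and for the mean of both treatments 0 to 2. In these fits 14545 to 14629 genes were tested. Of all these, 65 to 145 passed in WT cells, 98 to 193 in S80A cells and 356 to 1039 between untreated cells. Between treated cells it was 434 to 1646, for the interaction 0 and for the mean of both treatments 1798 to 3073. Between treated cells, 2 genes passed with DESeq2 or with the replicate number as a block, and 3 with the long-transcript covariate or without the 2 libraries low in long transcripts. More of all tested genes passed in those fits too, 1361 of 14382 with DESeq2, 1469 with the block and 2379 with the covariate against 1058 of 14383, and 1475 of 14587 without the 2 libraries. Requiring a log2 difference of at least 1 left 0 in this comparison and 0 in the mean of both treatments, where 1 passed without the filter on low counts. Whether replicate numbers pair the samples was not settled. Deviations from group means correlated at a mean r of 0.118 for same-number pairs (-0.0989 to 0.495) and -0.0590 for other pairs. Of 18 same-number pairs 9 were correlated over 0.1, and 6 of 12 libraries were closest to their own number. With the block 1232 of all tested genes passed between untreated cells, against 900 without it. The block moved no other count of members.

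REL passed for TNFα with no filter on low counts, at an edgeR adjusted p of 0.034 in WT and 0.015 in S80A cells, and in WT cells with the 6 samples compared alone (0.0086). The cause was not tested. Changes of sign fell on values that did not pass. With 1 sample left out the log2 difference ran from -0.41 to 0.25 for REL and from -0.12 to 0.0081 for NFKB1 between untreated cells, from -0.40 to 0.27 for REL and from -0.0051 to 0.060 for RELA between treated cells, from -0.26 to 0.098 for REL in the mean and from -0.30 to 0.39 for REL in the interaction (-0.026 with the replicate block). Without the 2 libraries it was 0.0080 for NFKB1 and 0.25 for REL untreated, 0.28 for REL treated and 0.26 for REL in the mean.

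In treated S80A cells 5 of 10 gene pairs kept their order with canonical or coding lengths. Shares changed sign as follows, in percentage points. NFKB1 with TNFα in WT cells gave 2.205, 0.702 and 3.59 with canonical, longest and coding lengths (-0.699 to 0.220 with 1 sample left out), and in S80A cells 1.59, 0.0770 and 3.16. Between treated cells NFKB1 gave 0.0675 with coding length, and NFKB2 gave 0.348, 0.0546 and 0.582 in the same order. REL in WT cells gave 0.0101 and 0.339 with canonical and coding lengths (-0.443 to 0.150 with 1 sample left out). Between untreated cells the range with 1 sample left out was -0.255 to 0.664 for NFKB1 and -0.402 to 0.370 for REL.

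Depth limits RELB in untreated cells (21 to 34 reads) and REL in its lowest libraries. P-values measure the spread between these samples of 1 cell line, which the labels do not tie to separate cultures.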
